A study of Mus musculus with 8 samples.

Results

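Adiponectin is a hormone of fat cells, and Adipor1 and Adipor2 encode its main receptors, membrane proteins of the progestin and adipoQ receptor (PAQR) family. Adipor1 is known chiefly for coupling to the AMP-activated protein kinase AMPK, and Adipor2 for coupling to the nuclear receptor PPAR alpha and the oxidation of fatty acids. Both receptors carry ceramidase activity, and in liver Adipor2 is usually described as the hepatocyte receptor. In these livers of mice with nonalcoholic steatohepatitis (NASH) and of control mice, the receptors differed in where they were found: Adipor1 was highest in neutrophils, and Adipor2 varied less between cell types. In the summed monocytes, macrophages and dendritic cells, Adipor1 was higher and Adipor2 lower in both NASH models than in control. The mixture of cells summed differed between the groups, and with equal weight of types only the Adipor2 difference in WD+F+CCl4 passed the test.

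Both genes were taken by symbol from the deposited gene list, so that 2 of 55450 genes were followed. Adipor1 (ENSMUSG00000026457) lies on the forward strand at chr1:134415378-134433351 and Adipor2 (ENSMUSG00000030168) on the reverse strand at chr6:119353150-119417704 of GRCm38, each a protein-coding gene that overlaps 0 other annotated genes. Single cells were dissociated from whole liver of wild-type C57BL/6 mice. The 2 control mice ate a normal diet, the 3 mice of the HFD+F+CCl4 group a high-fat diet, a fructose solution to drink and injected carbon tetrachloride (CCl4), and the 3 mice of the WD+F+CCl4 group a western diet with the same additions. CCl4 is a liver toxin, so neither model is diet alone, and no group received CCl4 without a diet. Each mouse gave 1 library of 3′ unique molecular identifier (UMI) counts, and levels below are a gene's share of all UMIs in the cells of 1 type in 1 mouse, as CPM (UMIs of the gene per 1000000). The 3′ counts carry no gene length, and the levels of the receptors are therefore never ranked against each other.

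Of 88581 barcodes, 80474 had more than 500 genes and less than 25% mitochondrial UMIs. Control replicate 2 was shallow, with 6135827 UMIs against 36699315 in control replicate 1 and 46275590 to 64855024 in the model libraries, and held 507 Adipor1 and 539 Adipor2 UMIs in its kept cells. No pair of libraries shared more than 46 barcodes (0.432%). Clusters were named from fixed markers, so that each name means a cell like that type, and 14.8% of kept cells stayed unnamed. Among the unnamed were clusters with hepatocyte RNA but below the markers of hepatocytes, held by 1847 and 2000 cells of the control mice and 4 cells of 1 model mouse. Their Adipor1 was 72.6 and 91.7 CPM, their Adipor2 93.6 and 106 CPM, and their Alb 10301 and 3555 CPM in the control mice. Names for 21 types covered at least 20 cells in 3 or more mice, and 10 of those types could be tested between groups. Free hepatocyte RNA, read from Alb, the albumin gene, in cells other than hepatocytes and cholangiocytes, moved with the groups. Its median over the other types was 708 and 699 CPM in the control mice, 376, 357 and 40.7 CPM in the HFD+F+CCl4 mice, and 13.1, 12.9 and 61.1 CPM in the WD+F+CCl4 mice.

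Adipor1 spanned an 11.7-fold range of mean levels over the 21 types. Neutrophils, short-lived phagocytes of the blood, stood at 680 ± 134 CPM (SD, n = 7 mice), with 760 CPM in control replicate 1, 887, 674 and 481 CPM in the HFD+F+CCl4 mice, and 685, 548 and 722 CPM in the WD+F+CCl4 mice. A second tier held sinusoidal endothelial cells (280 CPM, n = 5), vascular endothelial cells (236 CPM, n = 3), patrolling monocytes (235 CPM, n = 7), Kupffer cells, the resident macrophages of liver (234 CPM, n = 5), erythroid cells (214 CPM, n = 3) and classical monocytes (213 CPM, n = 8). Macrophages followed at 172 CPM and cholangiocytes, the bile duct cells, at 130 CPM. Lymphocytes and dendritic cells were lower, with 92.1 CPM in NK cells, 90.0 in B cells, 80.3 in T cells, 86.3 in type 2 dendritic cells (DC2), 76.3 in type 1 dendritic cells (DC1) and 72.3 in mature dendritic cells. Plasmacytoid dendritic cells, the interferon-producing type, were lowest at 57.9 CPM. The neutrophil level was 7.67 to 18.1 times the plasmacytoid level in the same mouse, and higher in 7 of 7 mice with both types.

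The order itself was not tested, and 0 of 20 neighbouring types in it differed after adjustment. This was an exact permutation test, two-sided, that flips signs of the within-mouse differences. Benjamini-Hochberg adjustment ran over the neighbouring pairs of both genes. The smallest exact p is 0.0078 with 8 mice, 0.0156 with 7 and 0.25 with 3. A single pair therefore could not pass, and the count does not show that neighbouring types are alike. Neutrophils exceeded sinusoidal endothelial cells by 1.34 on the log2 scale in 4 of 4 mice with both, where the smallest exact p is 0.125. Cholangiocytes exceeded NK cells by 0.48 in 7 of 7 mice, and mature dendritic cells exceeded plasmacytoid dendritic cells by 0.37 in 7 of 7 mice (exact p = 0.0156 and adjusted p = 0.203 for each). With every cell thinned to 1000 UMIs, 51.1% ± 4.31 (SD, n = 7) of neutrophils held an Adipor1 UMI against 23.7% of sinusoidal endothelial and 5.35% of plasmacytoid dendritic cells. Without thinning the shares were 63.2% in neutrophils and 17.0% in plasmacytoid dendritic cells. Thinning left out 11.6% of control, 4.87% of HFD+F+CCl4 and 3.76% of WD+F+CCl4 cells. Neutrophils are small in RNA, and keeping only cells with more than 1000 genes lowered their mean Adipor1 to 436 CPM. They held 0.423% to 5.77% of all UMIs of a mouse but 4.22% to 17.8% of its Adipor1 UMIs.

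**Figure D1:**
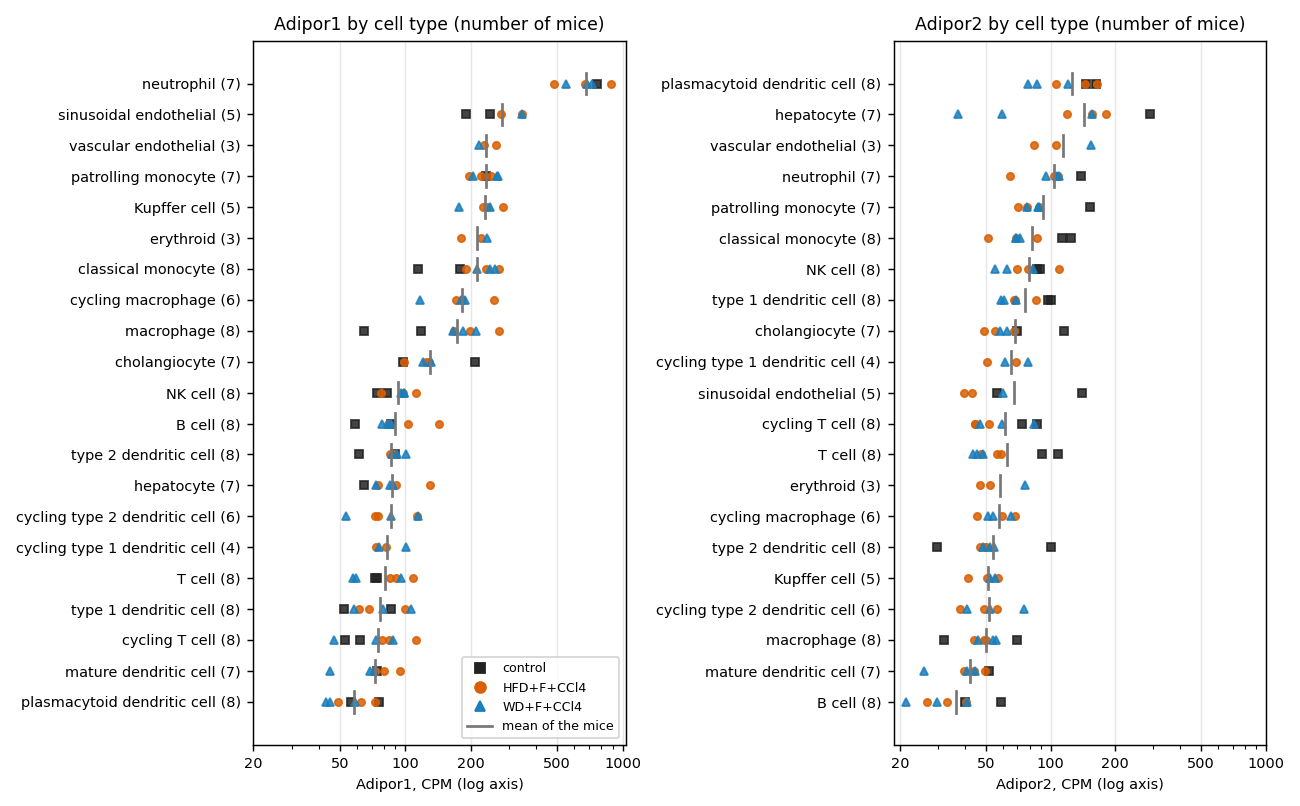
Level of Adipor1 (left) and Adipor2 (right) in each named cell type, on a log axis of CPM, with 1 point per mouse coloured by group and the mean over mice; the number of mice stands beside each type. Neutrophils, with a mean of 680 CPM, lie apart from the other types for Adipor1, and the types span 3.91-fold for Adipor2.

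Adipor2 varied less, over a 3.91-fold range of mean levels. Hepatocytes (143 ± 84 CPM, SD, n = 7) and plasmacytoid dendritic cells (126 ± 33 CPM, n = 8) led, followed by vascular endothelial cells (114 CPM), neutrophils (104 CPM) and patrolling monocytes (91.8 CPM). Classical monocytes (81.7 CPM), NK cells (79.4 CPM), DC1 (76.1 CPM), cholangiocytes (68.4 CPM) and sinusoidal endothelial cells (68.0 CPM) formed the middle. T cells (62.5 CPM), DC2 (54.0 CPM), Kupffer cells (51.4 CPM), macrophages (50.2 CPM) and mature dendritic cells (42.3 CPM) were lower, and B cells were lowest at 36.4 CPM. The plasmacytoid level was 2.11 to 6.16 times that of B cells in the same mouse, in 8 of 8 mice. Of 20 neighbouring pairs 0 differed after adjustment, by the same test, in which a single pair could not pass. The nearest was patrolling above classical monocytes, by 0.27 on the log2 scale in 7 of 7 mice (exact sign-flip p = 0.0156, adjusted p = 0.203). After thinning to 1000 UMIs, 11.2% ± 2.65 (SD, n = 7) of plasmacytoid dendritic cells and 3.60% ± 1.36 (n = 8) of B cells held an Adipor2 UMI. The unthinned shares were 32.3% and 6.83%. No named type is known to lack Adipor2, so the B cell share is the closest to a background level for such shares.

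Named hepatocytes were few, at 1 to 246 cells per mouse, and their Adipor2 level moved with their own albumin. The number depends on the naming rule, which left out the unnamed control clusters with hepatocyte RNA. Alb in those clusters, 10301 and 3555 CPM, was above the 1457 CPM of the named hepatocytes of WD+F+CCl4 replicate 1. Adipor2 stood at 290 CPM in control replicate 1, at 155, 181 and 119 CPM in the HFD+F+CCl4 mice, and at 37.2, 59.4 and 155 CPM in the WD+F+CCl4 mice. Alb in the same cells was 27376 CPM in that control, 16927, 24616 and 19166 CPM in the HFD+F+CCl4 mice, and 1457, 5160 and 21280 CPM in the WD+F+CCl4 mice, so that the 2 mice lowest in Adipor2 were the 2 lowest in Alb. The named hepatocytes came from separate sub-clusters. A sub-cluster of 130 cells led by Hamp, Hpx, Rbp4 and Apoc3, genes of secreted liver proteins, had a median of 252 CPM Adipor2 (42.0 to 361, 6 mice) and 33346 CPM Alb. A sub-cluster of 578 cells with Fabp1, Mat1a and Fbp1 among its leading genes, all genes of liver metabolism, had a median of 56.5 CPM Adipor2 (36.3 to 135, 7 mice) and 2035 CPM Alb. That median Alb was below the level of cholangiocytes, 2586 to 7986 CPM over mice, so the hepatocyte name of this larger sub-cluster does not rest on high Alb. Hnf4a, a transcription factor of hepatocytes, was present in both, at 180 to 318 CPM in the first and 129 to 607 CPM in the second. Adipor1 was 41.0 to 84.9 CPM in the first and 67.4 to 159 CPM in the second. The 135 CPM Adipor2 and 67.4 CPM Adipor1 of the second came from 12 cells of control replicate 1, with 14826 UMIs of all genes. The 41.0 CPM Adipor1 of the first came from 10 cells of HFD+F+CCl4 replicate 1, with 48743 UMIs. These ends of the ranges thus rest on very few UMIs of the gene. With 1 control mouse that had enough named hepatocytes, these cells were not compared between groups.

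**Figure D2:**
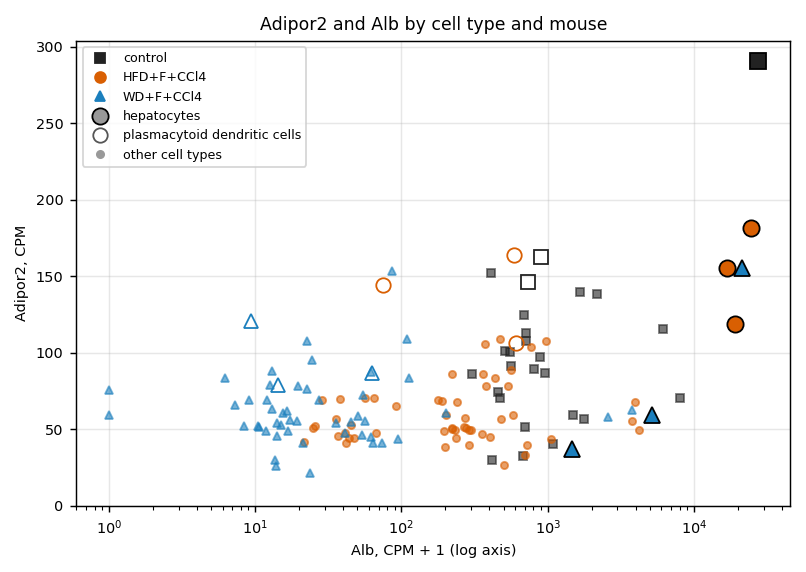
Adipor2 (CPM) against Alb (CPM + 1, log axis) in each cell type of each mouse, with colour and shape for the group, large outlined marks for hepatocytes, open marks for plasmacytoid dendritic cells and small marks for the other types. Hepatocyte Adipor2 runs from 37.2 to 290 CPM, and most other types of the control mice lie at higher Alb than those of the WD+F+CCl4 mice, with medians without cholangiocytes of 699 to 708 against 12.9 to 61.1 CPM.

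The study set each model against control in the monocyte-macrophage-DC (MMD) system, made of monocyte clusters, a Kupffer cell cluster and a DC cluster. Its discussion names Adipor1, under fatty acid catabolism, for the genes induced in these cells by NASH. Here MMD cells were the named monocytes, macrophages, Kupffer cells and dendritic cells, with plasmacytoid and cycling ones and any myeloid cluster of mixed markers. They are therefore not the same set of cells as in the study. Summed over all MMD cells of a mouse, Adipor1 was 93.2 and 88.9 CPM in the control mice, 244, 174 and 154 CPM in the HFD+F+CCl4 mice, and 201, 161 and 214 CPM in the WD+F+CCl4 mice. Adipor2 went the other way, with 121 and 116 CPM in the control mice, 57.1, 59.0 and 57.2 CPM in the HFD+F+CCl4 mice, and 64.7, 61.2 and 58.9 CPM in the WD+F+CCl4 mice. Neither gene's control values overlapped those of a model. With 2 control mice this can arise easily, and the share of all genes without overlap was not counted. The controls rested on 588 and 98 Adipor1 UMIs and on 763 and 128 Adipor2 UMIs, and the exact 95% Poisson interval for Adipor2 in control replicate 2 was 96.9 to 138 CPM, which covers counting error only.

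As log2 fold changes against control, Adipor1 stood at 1.20 in HFD+F+CCl4 (SE 0.21, edgeR adjusted p = 0.00631) and at 1.26 in WD+F+CCl4 (SE 0.21, adjusted p = 0.00383), and was higher in both. Adipor2 was lower in HFD+F+CCl4, at -0.89 (SE 0.14, adjusted p = 0.00423), and in WD+F+CCl4, at -0.75 (SE 0.14, adjusted p = 0.00647). Among all 17450 genes tested, 8.78% were higher and 8.02% lower in HFD+F+CCl4, and 11.4% were higher and 10.5% lower in WD+F+CCl4. The comparisons share the 2 control mice, and are not separate evidence. Between the models, Adipor1 differed by 0.07 (SE 0.17) and Adipor2 by 0.14 (SE 0.12), WD+F+CCl4 minus HFD+F+CCl4. There edgeR called 0% of genes, with 412 higher and 733 lower at an unadjusted p under 0.05, and DESeq2 called 0.865%. One control mouse decided the call in 2 cases. Without control replicate 2 the Adipor1 difference in HFD+F+CCl4 was 1.09 (edgeR adjusted p = 0.0540), and without control replicate 1 the Adipor2 difference in WD+F+CCl4 was -0.61 (edgeR adjusted p = 0.0659).

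**Figure D3:**
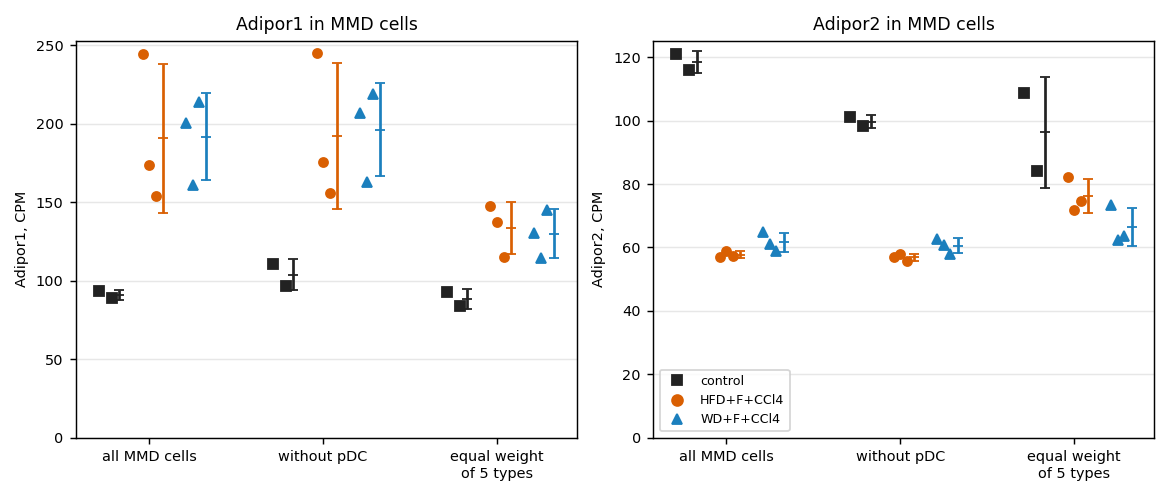
Adipor1 (left) and Adipor2 (right) in the MMD cells of each mouse, in CPM from 0, for all MMD cells summed, without plasmacytoid dendritic cells (pDC), and with equal weight of the 5 types; each point is 1 mouse, and the bars give mean and SD of a group. In the sum, control mice sit at 88.9 to 93.2 CPM for Adipor1, below all 6 model mice, and at 116 to 121 CPM for Adipor2, above all 6 model mice.

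The cells summed were not the same mixture. Plasmacytoid dendritic cells and DC1, which are low in Adipor1, held 55.0% to 67.7% of the MMD UMIs of control mice and 1.62% to 7.20% of those of model mice. Macrophages and patrolling monocytes, which are higher in Adipor1, held 3.30% to 5.91% in control and 19.1% to 65.7% in models. Kupffer cells, also higher in Adipor1, held 0% to 0.398% in control and 0.193% to 14.6% in models. For Adipor2, plasmacytoid dendritic cells were among the highest types (126 CPM) and macrophages among the lowest (50.2 CPM). DC1 (76.1 CPM) and patrolling monocytes (91.8 CPM) lay between them. In a sum of cells, a change in the number of cells of a type cannot be told apart from a change in RNA per cell. With the 5 MMD types found in every mouse given equal weight, Adipor1 was 93.0 and 84.0 CPM in control against 115 to 148 CPM in HFD+F+CCl4 and 114 to 145 CPM in WD+F+CCl4. The log2 difference dropped to 0.52 (edgeR adjusted p = 0.120) and 0.55 (adjusted p = 0.0696), and neither passed. Adipor2 was then 109 and 84.0 CPM in control, 71.8 to 82.1 CPM in HFD+F+CCl4 and 62.5 to 73.2 CPM in WD+F+CCl4. Its log2 difference was -0.47 (edgeR adjusted p = 0.122) in HFD+F+CCl4 and -0.61 (adjusted p = 0.0315) in WD+F+CCl4, where 5.15% and 8.98% of all genes passed in either direction. Control replicate 2 carried 13 UMIs of each gene in this weighting. Leaving out only the plasmacytoid dendritic cells, an alternative chosen after the data were seen, Adipor1 was higher by 0.89 (adjusted p = 0.0411) and 0.99 (adjusted p = 0.0195), and Adipor2 was at -0.78 (adjusted p = 0.0145) and -0.64 (adjusted p = 0.0222), with the HFD+F+CCl4 value first in each pair. Summed MMD cells held 759 and 614 CPM Alb in control and 10.7 to 317 CPM in models, and the part of this in Adipor2 was not tested.

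Within single cell types the same comparison gave few calls. Adipor1 estimates in the 10 types ran from 0.02 in cholangiocytes to 1.13 in macrophages for HFD+F+CCl4, with a median of 0.36. For WD+F+CCl4 they ran from -0.23 in plasmacytoid dendritic cells to 0.96 in macrophages. Adipor1 passed in 0 of 10 types by edgeR and in 0 by DESeq2, with 2 types (HFD+F+CCl4) and 3 types (WD+F+CCl4) at an unadjusted p under 0.05. Adipor2 estimates ran from -0.83 in DC2 to 0.0044 in NK cells for HFD+F+CCl4 (median -0.75) and from -0.90 in T cells to -0.15 in macrophages for WD+F+CCl4 (median -0.64). Adipor2 passed in 1 of 10 types, T cells, in each model by edgeR and in 0 by DESeq2, with 6 and 5 types at an unadjusted p under 0.05. Over the 10 types together, edgeR called 2.3% of gene tests in either direction for HFD+F+CCl4 and 3.94% for WD+F+CCl4, and DESeq2 called 2.53% and 3.66%. By type the edgeR share was 0.883% to 4.34% for HFD+F+CCl4 and 0.771% to 8.36% for WD+F+CCl4. All of these shares are at an adjusted p, and none is given for the counts of types at an unadjusted p. Those counts are therefore not a result about the receptors. Between the models 0 types were called for either gene by edgeR or DESeq2, where edgeR called 0.0248% and DESeq2 0.158% of gene tests after adjustment. There 0 types had an unadjusted p under 0.05.

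**Figure D4:**
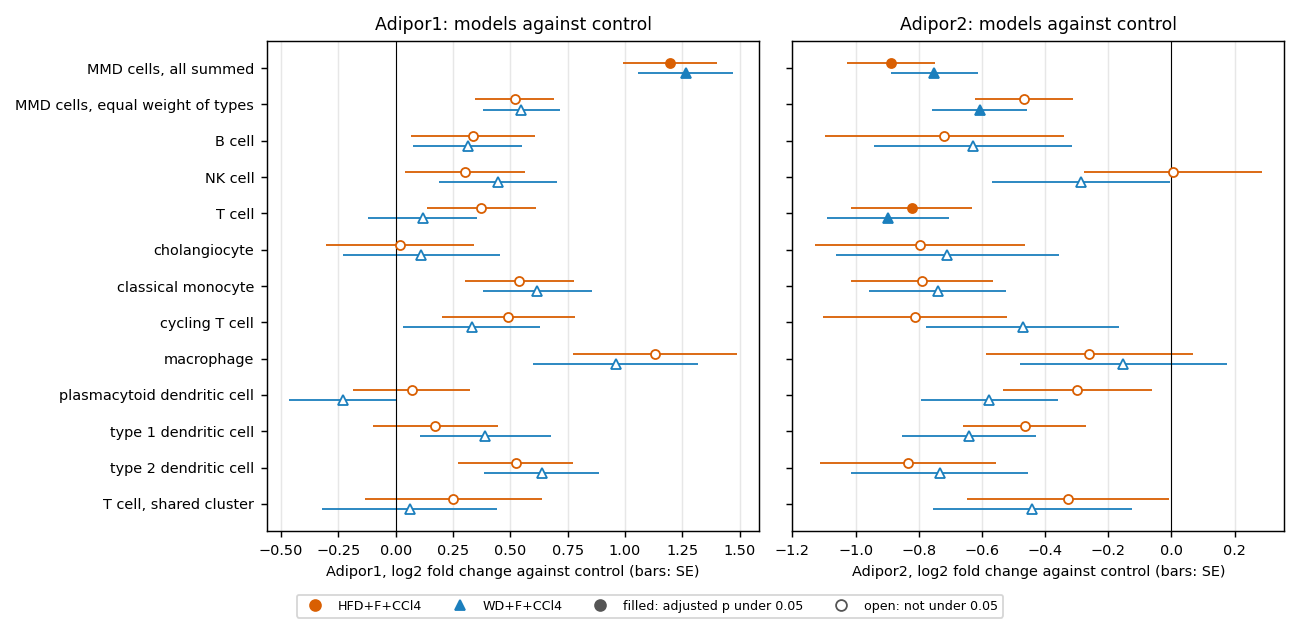
Estimated log2 fold change of Adipor1 (left) and Adipor2 (right) against control in the MMD cells (summed, and with equal weight of types), in each cell type tested and in the T cells of the shared cluster, for both models, with bars for the SE and filled points where edgeR's adjusted p was under 0.05. For Adipor2 the filled points are the MMD sum, the equal weight in WD+F+CCl4, and T cells, and the estimates run from -0.90 to 0.0044 over the types.

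T cells carried the one Adipor2 call. Their Adipor2 was 91.5 and 108 CPM in the control mice, 56.4, 58.9 and 47.5 CPM in the HFD+F+CCl4 mice, and 45.7, 48.7 and 43.4 CPM in the WD+F+CCl4 mice, so that control and model values did not overlap, a trait not counted over all genes. It was at -0.82 (SE 0.19, edgeR adjusted p = 0.0417) and -0.90 (SE 0.19, adjusted p = 0.0325), where 1.28% and 1.82% of all genes tested in T cells were lower. Control replicate 2 gave 19 UMIs, with an exact 95% Poisson interval of 64.9 to 168 CPM. The call depended on the setting: DESeq2 gave adjusted p = 0.153 and 0.102, and without control replicate 1 edgeR gave adjusted p = 0.420 and 0.318. The T cells of the groups also fell into different clusters. In control replicate 1, 1618 of 1921 T cells lay in a cluster that held 0 to 7 T cells of any model mouse. Over the 1 cluster that had enough T cells in every mouse, Adipor2 was at -0.33 (edgeR adjusted p = 0.821) and -0.44 (adjusted p = 0.607). Its level there was 68.8 and 114 CPM in control, 40.5 to 65.8 CPM in HFD+F+CCl4 and 42.9 to 47.3 CPM in WD+F+CCl4. Control replicate 2 held only 32 of these cells, with 35154 UMIs of all genes, so this test does not show that the difference was absent. The kind of T cell and the group cannot be told apart. Free hepatocyte RNA moved with the groups here too: T cells held 557 and 715 CPM Alb in control and 13.2 to 580 CPM in models. The part of that RNA in the T cell difference was not tested.

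Monocytes and macrophages are the phagocytes of the MMD system. Classical monocytes, the recruited blood monocytes, held 179 and 115 CPM Adipor1 in control against 191 to 269 CPM in HFD+F+CCl4 and 215 to 258 CPM in WD+F+CCl4, with estimates of 0.54 (edgeR adjusted p = 0.243) and 0.62 (adjusted p = 0.144). Their Adipor2 was 113 and 124 CPM in control against 51.3 to 86.3 CPM and 68.9 to 72.0 CPM, with estimates of -0.79 (adjusted p = 0.0909) and -0.74 (adjusted p = 0.0682). For neither gene did control and model mice overlap in these monocytes, a trait not counted over all genes, and neither passed the test. Control monocytes lay mostly in one cluster and model monocytes in another, so that the cluster and the group cannot be told apart. Macrophages held 118 and 64.4 CPM Adipor1 in control, the second from 2 UMIs with an exact 95% Poisson interval of 7.79 to 232 CPM, against 166 to 271 CPM in the model mice. The estimates were 1.13 (SE 0.36, edgeR adjusted p = 0.183) and 0.96 (adjusted p = 0.217), in cells where the median over all genes stood at 0.39 and 0.41. Macrophage Adipor2 was 70.1 CPM in control replicate 1, 32.2 CPM from 1 UMI in control replicate 2, and 44.1 to 55.9 CPM in models, and without control replicate 1 its estimates of -0.26 and -0.15 turned to 1.20 and 1.32. Patrolling monocytes, with enough cells in 1 control mouse only, gave 152 CPM Adipor2 there against 70.6 to 88.7 CPM in models, and 235 CPM Adipor1 against 198 to 268 CPM.

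Dendritic cells differed less in Adipor1. In plasmacytoid dendritic cells the Adipor1 estimate was 0.07 in HFD+F+CCl4 and -0.23 in WD+F+CCl4, and Adipor2 was 163 and 146 CPM in control, 164, 106 and 144 CPM in HFD+F+CCl4, and 121, 78.5 and 86.4 CPM in WD+F+CCl4. The 164 CPM rested on 10 UMIs in 20 cells, and in HFD+F+CCl4 the values overlapped those of control. DC1, which present antigen to CD8+ T cells, held 97.2 and 101 CPM Adipor2 in control and 58.6 to 85.7 CPM in models, at -0.46 (edgeR adjusted p = 0.227) and -0.64 (adjusted p = 0.101). In DC2 control replicate 1 held 101 CPM Adipor2 and control replicate 2 held 29.8 CPM from 1 UMI, and the estimates were -0.83 (adjusted p = 0.176) and -0.73 (adjusted p = 0.197). Without control replicate 1, which leaves that 1 UMI as the control, the DC2 estimates for Adipor2 turned to 1.26 and 1.36. Of the other types, B cells had Adipor2 estimates of -0.72 and -0.63, cholangiocytes -0.80 and -0.71, cycling T cells -0.81 and -0.47, and NK cells 0.0044 and -0.29, again with HFD+F+CCl4 first. None of these passed the edgeR test, and without control replicate 1 the cholangiocyte estimates turned to 0.13 and 0.22. Cholangiocytes also carried the most Alb of the named types outside hepatocytes, 6158 and 7986 CPM in control and 2586 to 4230 CPM in models. The part of that RNA in cholangiocyte Adipor2 was not tested.

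The balance of the receptors within a cell type can be followed as Adipor2 minus Adipor1, a difference of log2(CPM + 1) from the same cells that cancels their depth. Over all mice it was highest in plasmacytoid dendritic cells (1.09 ± 0.45, SD, n = 8), then in hepatocytes (0.49 ± 1.06, n = 7) and DC1, and lowest in neutrophils (-2.70 ± 0.22, n = 7), Kupffer cells (-2.16) and sinusoidal endothelial cells (-2.15). These means rest on different mice, with 5 model and 0 control mice for Kupffer cells. In model mice alone, sinusoidal endothelial cells stood at -2.74 (n = 3) and neutrophils at -2.75 (n = 6). The 2 control mice had a mean of -1.27 in sinusoidal endothelial cells. Within mice, sinusoidal endothelial cells were higher than Kupffer cells in 0 of 3. Of 20 neighbouring pairs 0 differed after adjustment by the exact sign-flip test, in which a single pair again could not pass. In the summed MMD cells Adipor2 minus Adipor1 was 0.37 and 0.38 in the control mice and -2.08 to -1.38 in the 6 model mice, a difference of -2.02 (exact two-sided permutation p = 0.0357, the smallest that 6 against 2 mice can give). The mixture differed here too: plasmacytoid dendritic cells held 32.2% to 37.2% of control and 0.172% to 3.60% of model MMD UMIs. With equal weight of types, Adipor1 was 84.0 to 93.0 CPM in control and 114 to 148 CPM in models. Adipor2 was then 84.0 to 109 CPM in control and 62.5 to 82.1 CPM in models. The part of the mixture in the difference of -2.02 was not tested. Within single types the model mice were lower by 1.48 in classical monocytes, 1.12 in T cells, 1.10 in macrophages, 1.02 in B cells and 0.73 in DC1. For each of these 5 the exact permutation p was 0.0357 and the p adjusted over 10 types 0.0714, so that 0 of 10 types passed. As 0.0357 is the smallest p possible here, 5 types at that limit cannot pass over 10 types. The count therefore does not show that the groups were alike within types. In macrophages the value of control replicate 2 came from 2 Adipor1 UMIs and 1 Adipor2 UMI. Control B cells lay mostly in a cluster, with 2187 and 151 cells, that held 0 to 60 B cells of any model mouse. For B cells, as for T cells and classical monocytes, the cluster and the group cannot be told apart. The smallest differences were those of plasmacytoid dendritic cells, at -0.19, cholangiocytes, at -0.36, and DC2, at -0.40.

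**Figure D5:**
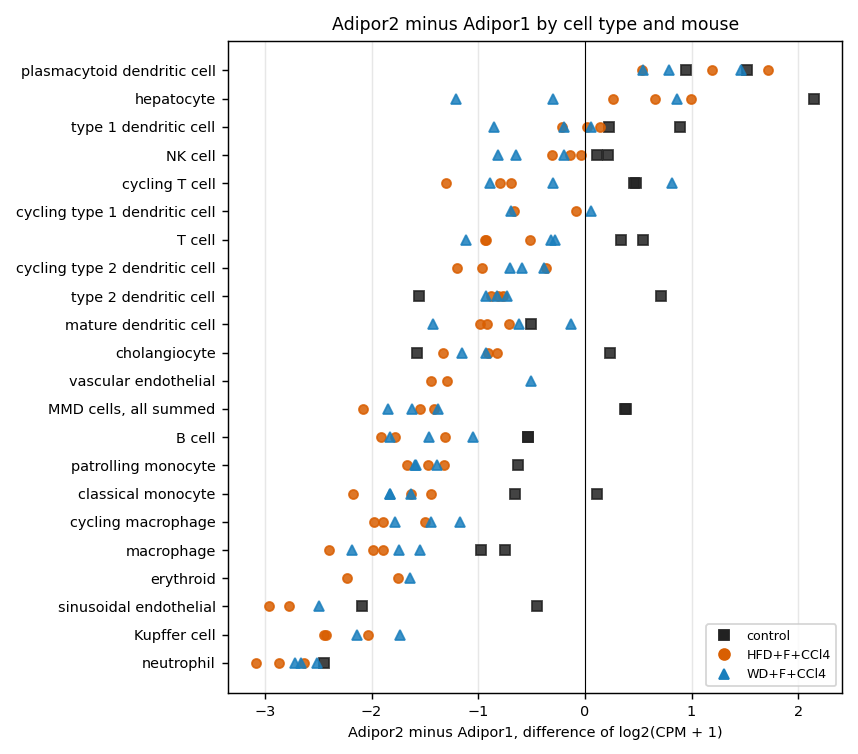
Adipor2 minus Adipor1 as a difference of log2(CPM + 1) in each cell type, with 1 point per mouse coloured by group; 0 marks equal CPM. In the summed MMD cells the control mice lie at 0.37 to 0.38 and the model mice at -2.08 to -1.38, and neutrophils lie lowest with a mean of -2.70. The mixture of MMD cells summed differed between the groups.

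Genes of adiponectin signalling beside the receptors were read in the MMD cells from lists of ligands, receptor relatives, adaptors, kinases and targets. Of 60 listed genes 51 were tested. In HFD+F+CCl4 4 rose and 2 fell, 11.8% of those tested against 16.8% of all genes, with a median log2 difference of 0.18 against 0.08. In WD+F+CCl4 9 rose and 6 fell, 29.4% against 21.9%, with a median of 0.13 against 0.07. These counts rested on single mice. Leaving out control replicate 1 left 2 calls in HFD+F+CCl4 and 3 in WD+F+CCl4, and leaving out control replicate 2 left 3 and 4. For WD+F+CCl4, the count was 6 when its own replicate 2 was left out, and 8 when its replicate 3 was. With equal weight of types 4 and 5 of the 37 genes that could be tested passed. Between the models 0 of 51 passed by edgeR or DESeq2. The largest groups of calls lay among PPAR alpha and its targets, with 3 of 14 in HFD+F+CCl4 and 6 of 14 in WD+F+CCl4. AMPK and its kinases gave 1 and 3 of 14, PAQR receptors 1 and 2 of 8, ceramidases 0 and 2 of 4, ligands and their relatives 0 and 1 of 4, insulin receptor substrates 1 and 1 of 2, and adaptors 0 and 0 of 5.

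Adipoq, the adiponectin gene itself, was too low to be tested in MMD cells. Cdh13, the T-cadherin that binds adiponectin, had estimates of -0.84 (edgeR adjusted p = 0.723) and -2.79 (adjusted p = 0.185). Appl1, the adaptor that binds both receptors, was 50.8 to 51.5 CPM in control and 41.1 to 57.5 CPM in models, with estimates of 0.07 (adjusted p = 0.875) and -0.01 (adjusted p = 0.989). Prkaa1, a catalytic subunit of AMPK, had estimates of -0.12 (adjusted p = 0.738) and 0.03 (adjusted p = 0.948). Ppara was low, at 0.6 and 2.7 CPM in control and at most 0.3 CPM in models, with estimates of -2.43 (adjusted p = 0.132) and -2.87 (adjusted p = 0.0777).

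Among called genes above an average log2 CPM of 3, the largest rises were those of Plin2, Angptl4 and Irs2 in HFD+F+CCl4 and of Angptl4, Plin2 and Cpt1a in WD+F+CCl4. Plin2, which coats lipid droplets, was 75.6 and 97.0 CPM in control and 283 to 1025 CPM in models, higher by 2.77 in HFD+F+CCl4 (edgeR adjusted p = 0.00364) and 3.43 in WD+F+CCl4 (adjusted p = 0.00154). With equal weight of the types Plin2 was higher by 1.89 (adjusted p = 0.00889) and 2.36 (adjusted p = 0.00157). It also passed within single types, higher in 5 of 10 in HFD+F+CCl4 and in 4 of 10 in WD+F+CCl4. Angptl4, a secreted inhibitor of lipoprotein lipase, was 1.1 and 3.6 CPM in control and 5.7 to 28.6 CPM in models, higher by 3.58 (adjusted p = 0.0186) and 3.64 (adjusted p = 0.0139), and with equal weight of the types neither difference passed (adjusted p = 0.148 and 0.0834). Cpt1a, which brings fatty acids into mitochondria, was higher by 1.48 in HFD+F+CCl4 (adjusted p = 0.00259) and by 1.75 in WD+F+CCl4 (adjusted p = 0.00124), the latter by 1.08 with equal weight (adjusted p = 0.00624). Irs2, an adaptor of the insulin receptor, was higher by 2.01 in HFD+F+CCl4 (adjusted p = 0.0178) and by 1.58 in WD+F+CCl4 (adjusted p = 0.0352), and the HFD+F+CCl4 estimate with equal weight was 0.71 (adjusted p = 0.438).

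Above the same average of 3, the largest falls were those of Paqr5 and Prkag2 in HFD+F+CCl4 and of Fabp1, Paqr5 and Prkab2 in WD+F+CCl4, and 2 scarcer genes, Prkaa2 and C1qtnf4, were called lower in WD+F+CCl4. Paqr5, a PAQR relative that responds to progestins, was 38.0 and 47.2 CPM in control and 0.5 to 7.7 CPM in models, at -3.80 in HFD+F+CCl4 (edgeR adjusted p = 0.0106) and -2.68 in WD+F+CCl4 (adjusted p = 0.0289). With equal weight of the types its sign turned, to 0.40 and 0.61. Paqr5 could be tested within 1 type, plasmacytoid dendritic cells, where it was higher by 0.77 in WD+F+CCl4 (edgeR adjusted p = 0.0130). Prkag2, a regulatory subunit of AMPK, fell in HFD+F+CCl4, by a log2 difference of -0.85 (adjusted p = 0.0152), and in WD+F+CCl4, at -0.70 (adjusted p = 0.0255), and the HFD+F+CCl4 value was -0.16 (adjusted p = 0.830) with equal weight. Prkab2, another regulatory subunit, was at -0.89 in WD+F+CCl4 (adjusted p = 0.0361), and was at -0.89 with equal weight too (adjusted p = 0.0475). Fabp1, a fatty acid binding protein and an abundant hepatocyte RNA, was at -2.73 in WD+F+CCl4 (adjusted p = 0.0448), and with equal weight at -2.30 it did not pass (adjusted p = 0.106). Alb was low in these mice as well, and the part of free hepatocyte RNA in the Fabp1 value was not tested.

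Over the 21 cell types, the genes most like Adipor1 among 11724 ranked were Dmxl2 (Pearson r 0.90), C5ar2, a complement receptor (0.90), Arrdc3, an arrestin-like protein (0.90), Pnpla2, the adipose triglyceride lipase (0.88), and Aatk (0.87). Those most like Adipor2 were Vps37a, of the ESCRT sorting machinery (0.71), Rab2a, a small GTPase of the secretory pathway (0.69), Pir (0.69), Bcr (0.69) and Plpp5 (0.68). These are correlations of mean log2(CPM + 1) over types from the same 8 libraries, given as a description. The receptors resembled each other little, with r = 0.21, which put Adipor2 at rank 3843 for Adipor1 and Adipor1 at rank 2834 for Adipor2.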

How the data were processed

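The deposited matrix held raw UMI counts per gene and barcode of 8 mouse liver libraries (10x Chromium 3′), made by the authors with bcl2fastq 2.20 and Cell Ranger on a mouse genome of build mm10, as their notes name it; no source used here gives the annotation release, and positions came from GENCODE vM21, matched by gene ID. Per the labels, samples fell into control (2 mice), the HFD+F+CCl4 model (3 mice) and the WD+F+CCl4 model (3 mice), with 1 mouse each. Kept were barcodes above 500 genes whose mitochondrial share of UMIs was below 25%. Counts scaled to 10000 were clustered (2000 variable genes, 30 components, 20 neighbours, Leiden resolution 0.6, then 0.2 within clusters; leidenalg 0.10.2), and clusters were named from markers. Doublets were ranked by a simulated-neighbour score, kept in the main values and removed (0.8% per 1000 barcodes) in an alternative. Receptors, gene lists and rules were chosen with earlier results of these data known, and resolutions and naming rules after the clusters were seen. The gene lists are those of ligands, PAQR receptors, adaptors, AMPK, ceramidases, PPAR alpha targets and insulin substrates.

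Counts were summed per mouse and type, with at least 20 cells, and tested with edgeR 4.0.16 (quasi-likelihood, TMM, filterByExpr, 1 fit of the 3 groups, Benjamini-Hochberg over all genes, threshold 0.05); DESeq2 1.42.0 was an alternative. Types entered where at least 2 mice of each group had enough cells. Named were, per comparison, the 3 largest rises and 3 largest falls among called list genes above an average log2 CPM of 3, plus Adipoq, Cdh13, Appl1, Ppara and Prkaa1, and the 5 genes most like each receptor among those of at least 20 CPM in a type. Levels of types were compared on log2(CPM + 1) by exact permutation. On simulated counts for MMD cells, 17% of 2-fold and 89% of 4-fold changes were recovered among 17103 genes, with 3 false calls. Alternatives were the scaling, the filter on low counts, leaving out each mouse, a replicate block, cell filters, resolution, doublets, equal weight of types and the unnamed control clusters added to MMD cells, and 2 chosen after the data were seen (shared clusters only, no plasmacytoid dendritic cells). Precision follows depth: a CPM of 1 type in control replicate 2 can rest on 1 to 20 UMIs, and intervals cover counting error only.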

Additional observations from a re-analysis of the deposited data

How the results depend on the processing

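In summed MMD cells the Adipor1 and Adipor2 differences from control kept their sign under every alternative. With equal weight of types the log2 values were 0.52 and 0.55 for Adipor1 and -0.47 for Adipor2 in HFD+F+CCl4, none past the threshold, and the Adipor2 difference between the models turned to -0.14. Leaving out 1 mouse gave 1.03 to 1.33 (HFD+F+CCl4) and 1.17 to 1.41 (WD+F+CCl4) for Adipor1, -0.99 to -0.76 and -0.84 to -0.61 for Adipor2, and -0.0262 to 0.22 and 0.08 to 0.19 between the models, and -2.08 to -1.94 for Adipor2 minus Adipor1 (exact permutation p 0.0476 to 0.143). Adipor1 was called in 1 type per model with no filter on low counts. Adipor2 was called in 0 types under DESeq2, the replicate block, more than 1000 genes, resolution 0.8 and shared clusters in both models, in 0 (HFD+F+CCl4) and 2 (WD+F+CCl4) with only the 2 groups compared, in 2 (WD+F+CCl4) without doublet-ranked cells, and in 0 to 1 and 0 to 2 with 1 mouse left out. The list genes called were 11 (DESeq2) and 15 (unnamed control clusters added to MMD cells) in HFD+F+CCl4, 7 (replicate block), 5 (equal weight) and 6 (no plasmacytoid dendritic cells) in WD+F+CCl4, and 2 to 8 and 3 to 15 with 1 mouse left out. The causes were not tested, beyond the fewer mice or cells that an alternative leaves.

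Within types, estimates that changed sign were Adipor1 in B cells over shared clusters (-0.0878 and -0.15), in cholangiocytes in HFD+F+CCl4 (DESeq2 -0.0398, library size -0.0468, doublets removed -0.0215), in T cells in WD+F+CCl4 (library size -0.0331), and in plasmacytoid dendritic cells (replicate block -0.13, more than 1000 genes -0.0107, and doublets removed 0.0969 in WD+F+CCl4). Adipor2 in NK cells in HFD+F+CCl4 changed to -0.0508 (library size), -0.0213 (no filter), -0.0416 (replicate block), -0.26 (more than 1000 genes) and -0.0285 (doublets removed). With 1 mouse left out, Adipor2 in HFD+F+CCl4 ran from -0.19 to 0.17 in NK cells, and, for HFD+F+CCl4 and then WD+F+CCl4, from -0.94 to 0.13 and -0.85 to 0.22 in cholangiocytes, from -0.46 to 1.20 and -0.35 to 1.32 in macrophages and from -0.997 to 1.26 and -0.89 to 1.36 in DC2. Adipor1 ran in WD+F+CCl4 from -0.0976 to 0.35 in T cells, -0.0284 to 0.58 in cycling T cells and -0.33 to 0.41 in cholangiocytes, and in HFD+F+CCl4 from -0.44 to 0.31 in cholangiocytes, -0.17 to 0.20 in plasmacytoid dendritic cells and -0.15 to 0.41 in DC1. Adipor2 minus Adipor1 between models and control ran from -1.26 to 0.54 in cholangiocytes, -0.48 to 0.10 in plasmacytoid dendritic cells and -1.54 to 0.73 in DC2. The numbers in the sample titles gave no sign of pairs: 0 of 7 same-number pairs correlated over 0.1 (-0.41 to 0.03), and 0 of 8 mice correlated best with their own number. The 14 other pairs ran from -0.31 to 0.40. These are deviations from group means, and those of the 2 control mice are exact opposites. Pairs with a control mouse therefore mirror each other, and the check cannot exclude pairing. With the replicate block the MMD calls of both receptors stood, at adjusted p 0.0191 and 0.0126 for Adipor1 and 0.0297 and 0.0369 for Adipor2 by edgeR.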
